A study of Mus musculus with 6 samples.

Results

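Processed pseudogenes are copies of messenger RNAs that were reverse transcribed and inserted into the genome, and 273 of them carried a mean level of at least 5 FPKM in MC3T3-E1 cells. FPKM is the number of sequenced fragments scaled to the length of a gene's exons and to the size of the library. The 273 are the rows of the authors' expression table with the biotype processed_pseudogene and a mean of at least 5 FPKM over the 6 libraries, out of 686 rows of that biotype and 15796 rows in all. MC3T3-E1 is a mouse pre-osteoblastic cell line, and RNA was sequenced from 3 control libraries of cells given an EGFP plasmid (labelled WT) and 3 overexpression libraries of cells given an Hsd11b1 plasmid. Both groups received 11-DHC (11-dehydrocorticosterone), an inactive steroid that the product of Hsd11b1 converts to active corticosterone, so neither group lacks it. The study asks what this enzyme does to bone formation and to the handling of glucose in such cells. The labels do not tell if replicates are separate cultures, and the p-values rest on the spread between libraries alone, which may be technical.

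A processed pseudogene lacks the introns of its parent gene, usually lacks the parent's promoter, and is mostly transcribed where it landed near another promoter or inside another gene. Housekeeping genes with abundant short messages, above all those of ribosomal proteins and glycolytic enzymes, have left the most copies in mammalian genomes. Because a young copy is nearly identical to the mature message, a read of the parent's message can align to the copy, and a read that crosses an exon junction of the parent aligns to the copy without a gap. How the authors' pipeline placed reads with several alignments is not given in the sources used here, so a level in a pseudogene row is described below as reads counted there, not as transcription of the pseudogene.

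The likeness that makes these rows hard to tell apart is shown for 4 pairs, chosen as the highest pseudogene, the highest copy of Gapdh, and the pseudogenes with the smallest p in each direction of change. Each stretch of 80 bases lies in the coding part of the parent and spans one of its exon junctions, and capitals mark the bases that differ between pseudogene and parent. The sequences come from the GENCODE M21 transcripts (GRCm38, the same build as the authors' mm10), and positions in the substitutions count from 1 at the 5′ end of the stretch, with the parent's base first.
Gm9794 (chr6:66875491-66875570, minus strand): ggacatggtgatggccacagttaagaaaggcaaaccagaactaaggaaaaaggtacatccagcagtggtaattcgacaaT
Rpl23 (chr11:97781334-97781386 and chr11:97778352-97778378, minus strand): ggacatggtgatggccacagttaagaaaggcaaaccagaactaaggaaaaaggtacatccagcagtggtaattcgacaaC
Gm5559 (chr5:95861714-95861793, plus strand): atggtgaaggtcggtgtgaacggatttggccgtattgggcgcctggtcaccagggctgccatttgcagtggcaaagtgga
Gapdh (chr6:125165271-125165293 and chr6:125163380-125163436, minus strand): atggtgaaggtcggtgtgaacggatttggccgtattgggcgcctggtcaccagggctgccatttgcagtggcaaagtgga
Rab7-ps1 (chr9:54825194-54825273, minus strand): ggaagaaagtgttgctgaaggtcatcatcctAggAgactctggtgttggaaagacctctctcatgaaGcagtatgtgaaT
Rab7 (chr6:88013638-88013680 and chr6:88012397-88012433, minus strand): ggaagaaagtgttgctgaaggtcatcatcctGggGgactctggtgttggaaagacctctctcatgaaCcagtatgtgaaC
Gm10705 (chr3:87207676-87207755, minus strand): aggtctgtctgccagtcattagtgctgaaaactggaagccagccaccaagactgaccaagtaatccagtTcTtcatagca
Ube2l3 (chr16:17159990-17160049 and chr16:17154263-17154282, minus strand): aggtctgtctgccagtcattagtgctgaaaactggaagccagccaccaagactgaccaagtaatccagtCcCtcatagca
The Gm9794 stretch carried 1 difference (C80T) from Rpl23, the Gm5559 stretch 0 from Gapdh, the Rab7-ps1 stretch 4 (G32A, G35A, C68G and C80T) from Rab7, and the Gm10705 stretch 2 (C70T and C72T) from Ube2l3. These stretches were the most divergent ungapped ones of their length with at least 20 coding bases of the parent on either side of a junction.

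A parent, the protein-coding gene whose transcript matched the pseudogene best at no less than 80% identity over at least 50% of its length, was found for 268 of the 273 pseudogenes. The median identity was 99.5%. It was 100% for 53 pseudogenes, at least 99% for 182 and at least 95% for 261, and the lowest, 81.9%, was that of Gm12276 to the cytochrome c gene Cycs. The pseudogenes were short, with a median exon length of 498 bases and a range of 78 (Gm10736, a copy of Rpl41) to 2406 (Vcp-rs, a copy of Vcp), and 272 had 1 exon. In 65 pseudogenes every stretch of 50 bases also occurred in the transcripts of another gene, 42 had at least 50% of such stretches to themselves, and the median pseudogene had 14.4%. The authors' read length is not known here, so these shares describe the sequences and not the reads. A same-strand intron of a coding gene held 33 pseudogenes and an opposite-strand intron 42, while 4 overlapped a same-strand and 21 an opposite-strand exon, and whether the authors' counting used strand is not stated. RefSeq lists 239 of the 273 symbols, 219 as pseudogenes, 17 as transcribed pseudogenes and 3 as protein-coding (Rpl34-ps1, Tma7-ps and Gm12250).

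The 268 pseudogenes went back to 196 parents, 194 of which were in the table, and the other parents were not analysed here. The parents Gm11808 and Gm10073 had 1 exon each, so a parent by this rule need not be a source gene with introns. Of the 194, 148 had 1 pseudogene, 32 had 2 and 14 had at least 3. Ribosomal protein genes of the cytosol were the largest class, with 105 pseudogenes from 57 parents. Rpl21 had the most, 7, led by Rpl21-ps15 and Rpl21-ps8, followed by the chromatin protein gene Hmgb1 with 6, led by Gm15387 and Gm5518. Rpl23a, Rpl17, Rpl7a and Gapdh had 4 each, and Rpl35a, Rpl6, Rps12, Rps2, Rps24, Rpl28, Rpl29 and the nucleophosmin gene Npm1 had 3 each.

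Levels ran from 5.01 to 703 FPKM with a median of 13.7, and 8 of the 10 highest pseudogenes were copies of ribosomal protein genes. Gm9794, a copy of the large-subunit gene Rpl23, had 694, 723 and 662 FPKM in the controls 1 to 3 and 702, 738 and 702 in the overexpression libraries 1 to 3. Its parent had 383, 443 and 394 in controls and 402, 411 and 424 with overexpression, below the copy in every library on the FPKM scale. Counted as reads (FPKM times exon length), Rpl23 held 69.8% to 71.9% of the reads of the pair over the 6 libraries, so this order depends on exon length. Next came Rpl14-ps1 with a mean of 388 FPKM, Rps10-ps2 with 278, the Ppia copy Gm10123 with 276, Rpl21-ps15 with 263 and the Gapdh copy Gm5559 with 249. Rpl17-ps10 had a mean of 201 FPKM, the Rpl29 copy Gm6344 187, and the Rps29 copy Gm14303 171. None of the 9 named here was called different between the groups, although Gm10123 and Rpl17-ps10 spread widely within them. Together the 273 pseudogenes held 2.38%, 2.40% and 2.45% of all FPKM in the controls and 2.1%, 2.26% and 2.33% in the overexpression libraries.

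Most pseudogenes stood below their parents, with a median ratio of mean FPKM of 0.237, but 50 stood above. The highest ratios were 12.1 for Gm5559 to Gapdh, 8.19 for Gm9385 to the ribosomal protein gene Rpl24, and 7.06 for Gm10241 to Sumo2, which encodes a ubiquitin-like modifier. FPKM divides by all annotated exons, whose union had a median of 2676 bases in the parents against 498 in the pseudogenes, so the ratio depends on that length as well as on reads. Counted as reads (FPKM times exon length), the parent held a median of 93.1% of the reads of the parent and its listed processed pseudogenes. In 6 parents the median share over the 6 libraries was under 50%: Sumo2, Gapdh, Fdps, Ppih, Sp140 and Rpl24. In single libraries Sumo2 held up to 69.5%, Ppih up to 56.4% and Sp140 up to 50.5%. Rpl24 held 12.4% to 20.5% of its reads over the 6 libraries, and Gapdh 6.56% to 26.3%.

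**Figure D1:**
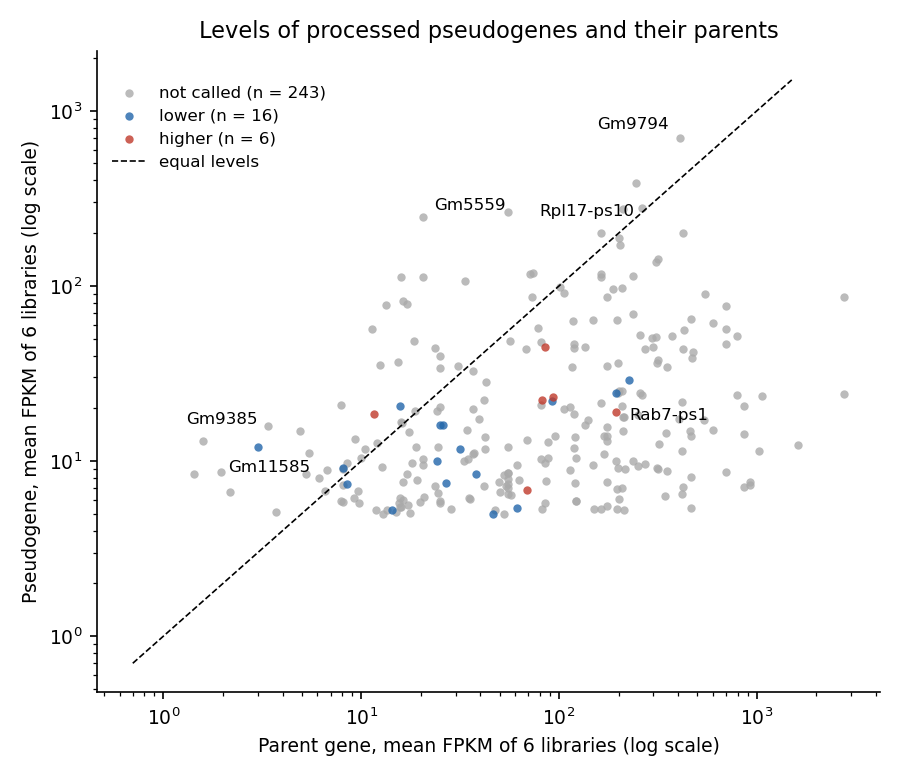
Mean FPKM over the 6 libraries of each pseudogene (y axis) against that of its parent (x axis), both on log scales, for the 265 pairs with both rows in the table; colours mark the limma call (adjusted p under 0.05) and the dashed line equal levels. Of these points 50 lie above the line, among them Gm5559, Gm9385 and Gm9794.

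Totals of 16264239 to 34948122 reads were recovered for the controls and 18290824 to 58665298 for overexpression, with control 2 and overexpression 3 the deepest. Hsd11b1, the check of the labels, had 1.90, 0.404 and 0.275 FPKM in controls and 323, 315 and 345 with overexpression. All 8 pre-osteoblast markers were listed, with summed levels of 2870 to 3096 FPKM in controls and 2860 to 2974 with overexpression. Of these 8, 3 were called: Postn, which encodes the matrix protein periostin, had 193, 151 and 168 FPKM in controls and 445, 458 and 388 with overexpression (log2 difference 1.33, limma adjusted p = 0.000174), the osteoblast transcription factor gene Runx2 was higher by 0.25 (adjusted p = 0.0442), and the cadherin gene Cdh11 differed by -0.30 (adjusted p = 0.0208). The 4 macrophage markers summed to at most 3.83 FPKM (2 listed), the 3 endothelial ones to at most 0.232 (1 listed), the 3 adipocyte ones to 0.101 to 0.159 in controls and 1.14 to 1.36 with overexpression (1 listed, Fabp4), and none of the 3 skeletal muscle markers was listed. The part of these marker differences in any result was not tested.

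Replicates of a pseudogene differed more than those of coding genes. The median within-group standard deviation of log2(FPKM + 1) was 0.20 over the 273 pseudogenes and 0.09 over the 7359 coding genes with a mean of at least 5 FPKM. Depth differed too, with a median of 1434 recovered reads over the 6 libraries per pseudogene and 10240 per coding gene. After the variance expected from counting was subtracted, the median coefficient of variation was 11.8% for pseudogenes and 6.36% for coding genes. It was over 30% in 21 pseudogenes (7.69%) and in 14 coding genes (0.190%). The within-group standard deviation had a median of 0.21 in the 65 pseudogenes with no 50-base stretch of their own, 0.19 in the 166 with some, and 0.21 in the 42 with at least 50%, whose median reads were 1776, 1548 and 744.

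Between overexpression and control, 7 pseudogenes were higher and 16 lower (8.42% of 273) in limma at an adjusted p under 0.05. Of the lower ones, 5 (Gm10705, Gm11966, Gm13552, Gm8394 and Gm11223) had an overexpression mean under 5 FPKM and reached the threshold on level only through the controls, so their entry and their direction are not independent. The other 11 lower and all 7 higher pseudogenes had a mean of at least 5 FPKM in both groups. Over all 13120 rows tested, 12.1% were called, 6.22% higher and 5.84% lower. The groups did not overlap for 46 pseudogenes, 10 higher and 36 lower (16.8%), against 30.8% of all rows tested. The share of all rows was not split by direction here, so the 10 and 36 have nothing to be set against. The median log2 difference was -0.08 for the pseudogenes and -0.01 for all rows. Of the 313 other processed pseudogenes that were tested at lower levels, 3 were higher and 14 lower (5.43%). When each library was omitted in turn, 2 to 6 pseudogenes were higher and 7 to 19 lower, and 8 of the 23 calls held in each of the 6 omissions. The higher count was 2 without control 3 and 3 without overexpression 1 or without overexpression 2, and the lower count was 10 without overexpression 1 and 7 without overexpression 2. In the authors' deposited table, 4 of the pseudogenes are higher and 13 lower at the same adjusted threshold, 13 of them in common with the calls here.

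Among the higher pseudogenes, 2 had a parent that was higher as well. Rab7-ps1, a copy of the gene of the late-endosomal GTPase Rab7, had 15.6, 13.7 and 14.6 FPKM in controls and 24.2, 22.8 and 23.8 with overexpression. All overexpression libraries lay above all controls, with a log2 difference of 0.65 (SE 0.07, n = 3 per group, limma adjusted p = 0.000633). Rab7 had 156, 153 and 154 FPKM in controls and 234, 246 and 226 with overexpression, a log2 difference of 0.60 (SE 0.07, limma adjusted p = 0.00086), and 46.8% of the 50-base stretches of the copy were its own. Gm10698, identical to part of the cargo receptor gene Tmed2, had 39.4, 42.1 and 35.9 FPKM in controls and 49.0, 53.4 and 50.3 with overexpression. It was higher by 0.37 (SE 0.08, limma adjusted p = 0.0147), beside 0.35 for Tmed2 (SE 0.07, adjusted p = 0.0106), and its call was lost without control 3 or without overexpression 2.

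For the other higher pseudogenes with a parent, the parent was not called. Rps13-ps2, identical over its whole length to the small-subunit gene Rps13, had 10.6, 14.7 and 16.6 FPKM in controls and 31.4, 31 and 30.2 with overexpression. That was a 2.21-fold higher mean and a log2 difference of 1.11 (SE 0.14, limma adjusted p = 0.0013). Rps13 itself had 84.6, 91.6 and 74.1 FPKM in controls and 72.4, 79.0 and 91.0 with overexpression, groups that overlap (log2 difference -0.05, SE 0.11, adjusted p = 0.842). Gm13597, a copy of the PDZ-domain protein gene Tax1bp3, was higher by 0.41 (SE 0.10, adjusted p = 0.0302), Rps15a-ps7 by 0.29 (SE 0.08, adjusted p = 0.045), and Gm9770, a copy of the phosphatase gene Ctdsp2, by 0.28 (SE 0.07, adjusted p = 0.0452). The calls of Gm13597 and Rps15a-ps7 were lost in 5 of the 6 single omissions and that of Gm9770 in all 6. Tax1bp3 differed by 0.28 (adjusted p = 0.0631), Rps15a by -0.01 (adjusted p = 0.936) and Ctdsp2 by 0.07 (adjusted p = 0.676).

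Gm12250 was the only called pseudogene without a parent. RefSeq lists it as protein-coding under the synonym Irgb10, a member of the interferon-inducible GTPases that act in defence inside cells, and all of its 50-base stretches are its own. It lies on chromosome 11 (58187739 to 58189012, GRCm38) and had 11.3, 9.95 and 8.30 FPKM in controls and 15.1, 16.6 and 12.9 with overexpression. The groups did not overlap and differed by 0.55 on the log2 scale (SE 0.12, limma adjusted p = 0.0207), a call lost without control 2, control 3, overexpression 1 or overexpression 2. Its neighbours Igtp and Irgm2, both genes of the same GTPase family, lay 10544 and 10606 bases away and differed by 0.17 (SE 0.08, adjusted p = 0.259) and 0.16 (SE 0.10, adjusted p = 0.36), and neither was called. The other 4 pseudogenes without a parent, AC156016.4, Gm15433, Gm42533 and B230207O21Rik, had means of 16, 15.9, 5.26 and 5.07 FPKM, and none was called.

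Of the lower pseudogenes, Gm10705 differed most, and it is among those that reached 5 FPKM only through the controls, with a control mean of 16.7 FPKM and an overexpression mean of 3.26. This copy of Ube2l3, which encodes a ubiquitin-conjugating enzyme, had 12.1, 20.2 and 17.7 FPKM in controls and 4.51, 2.79 and 2.48 with overexpression. The mean with overexpression was 0.196 of the control mean and the log2 difference -2.05 (SE 0.21, limma adjusted p = 0.000554). Ube2l3 had 25.7, 24.7 and 23.8 FPKM in controls and 22.9, 25.1 and 22.4 with overexpression, and it was not called (log2 difference -0.08, SE 0.07, adjusted p = 0.56). In the authors' deposited table the log2 fold change of Gm10705 is -2.41.

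Gm7846, a copy of Lsm5, whose product is part of a ring of proteins on spliceosomal RNA, had 12.5, 10.2 and 14.8 FPKM in controls and 5.39, 5.87 and 5.79 with overexpression (log2 difference -1.0, SE 0.12, limma adjusted p = 0.00108). Gm11585, identical to part of the spliceosomal cyclophilin gene Ppih, had 13.8, 13.9 and 14.6 FPKM in controls and 10.7, 9.04 and 9.95 with overexpression (log2 difference -0.47, SE 0.07, limma adjusted p = 0.00427). Neither Lsm5 (-1.14, SE 0.33, adjusted p = 0.0597) nor Ppih (-0.45, SE 0.29, adjusted p = 0.399) was called on its own. Gm12960, a copy of the RNA-binding protein gene Hnrnpa3, was lower by 0.45 on the log2 scale (-0.45, SE 0.09, adjusted p = 0.0119), a call lost without overexpression 2, while Hnrnpa3 differed by -0.06 (SE 0.17, adjusted p = 0.869).

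Gm15452, identical to part of Cks2, which encodes a partner of cyclin-dependent kinases, had 12.8, 16.3 and 14.3 FPKM in controls and 10.3, 7.37 and 8.81 with overexpression. It differed by -0.66 (SE 0.12, limma adjusted p = 0.00947), beside -0.46 for Cks2 (adjusted p = 0.0113), and it was the only called pseudogene in a same-strand intron, that of Sntg1. Gm8203, a copy of the histone variant gene H2afz, was at -0.60 (SE 0.13, adjusted p = 0.0211), beside -0.45 for H2afz (adjusted p = 0.00901), and it overlaps an exon of Tmcc1 on the opposite strand. Gm11223, a copy of the microtubule-destabilizing protein gene Stmn1, was at -0.39 (SE 0.08, adjusted p = 0.0188), beside -0.61 for Stmn1 (adjusted p = 0.000517). Gm4739, a copy of the chromatin protein gene Hmgb2, was at -0.57 beside -0.57 for its parent, and Hmgb1-ps2 was at -0.34 beside -0.51 for Hmgb1 (adjusted p = 0.0283, 0.00425, 0.0366 and 0.00613 in that order, limma). Gm3788, a copy of the actin-monomer-binding protein gene Tmsb10, was at -0.52 (adjusted p = 0.0212), while Tmsb10 at -0.21 was not called (adjusted p = 0.186). The calls of Gm8203, Gm11223, Gm4739 and Gm3788 were each lost in 4 of the 6 single omissions and that of Hmgb1-ps2 in 5.

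Sms-ps, identical to part of the spermine synthase gene Sms, had 25.8, 23.7 and 22.8 FPKM in controls and 16.6, 15.2 and 18.9 with overexpression. It differed by -0.49 (SE 0.09, limma adjusted p = 0.00886), and Sms was lower too (-0.38, SE 0.08, adjusted p = 0.0154). Gm11966, an 87-base copy of the ATP synthase subunit gene Atp5j with only 99 recovered reads in all, had 12.7, 9.54 and 7.77 FPKM in controls and 5.66, 5.55 and 3.72 with overexpression (log2 difference -0.87, SE 0.18, adjusted p = 0.0154). Gm13552, a copy of the mitochondrial ribosomal protein gene Mrps18b, was at -0.53 (adjusted p = 0.0178), Gm8394, a copy of the proteasome subunit gene Psma5, at -0.35 (adjusted p = 0.028), Gm14539, a copy of the ATP synthase-associated protein gene Usmg5, at -0.37 (adjusted p = 0.0334) and Impdh2-ps, a copy of the gene for the key enzyme of GTP synthesis, at -0.36 (adjusted p = 0.0386, all limma). The parents of these 4 were not called, with log2 differences of 0.05, -0.15, -0.19 and -0.25. The call of Gm13552 was lost in 2 of the 6 single omissions and those of Gm8394, Gm14539 and Impdh2-ps in 5.

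**Figure D2:**
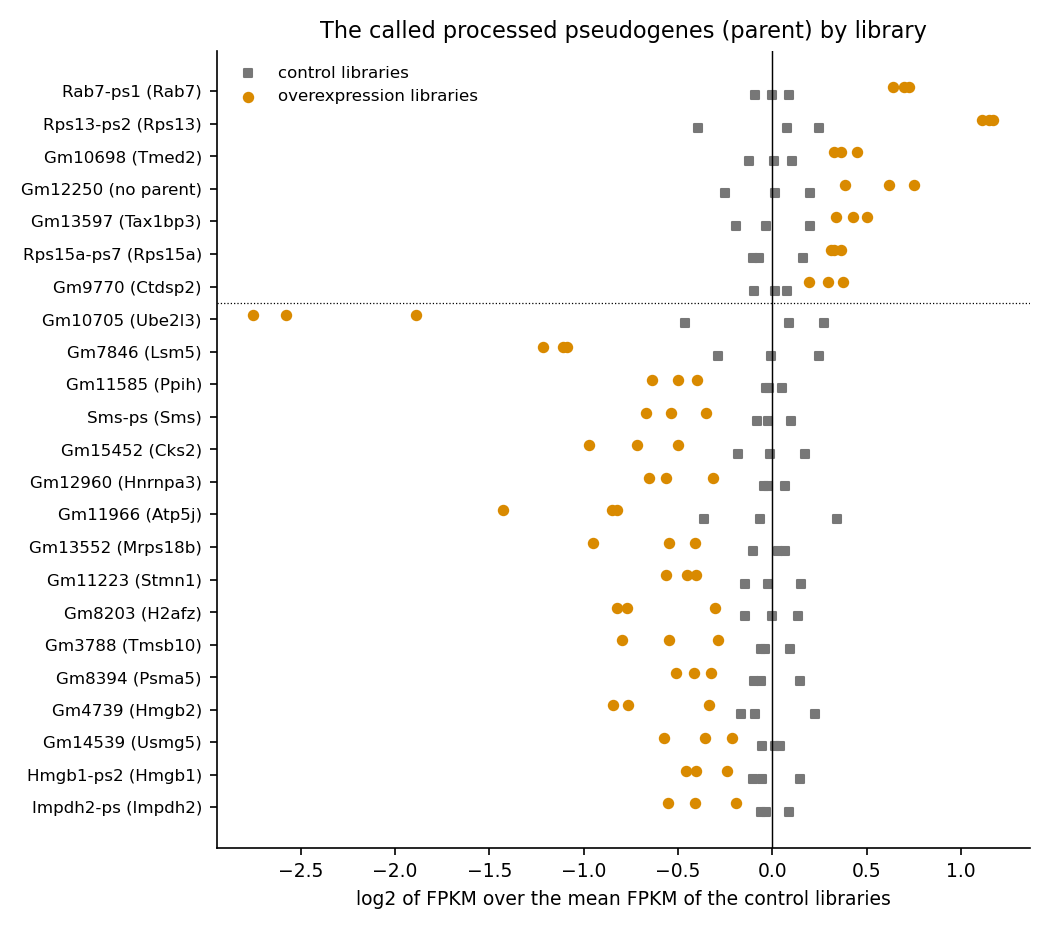
Log2 of FPKM in each library over the mean of the 3 control libraries (x axis) for the 7 higher and 16 lower pseudogenes (y axis, parent in brackets, ordered by p within each direction); squares are control and circles overexpression libraries. The groups do not overlap in any of the 23, and by mean difference Gm10705 is the farthest on the lower side and Rps13-ps2 on the higher side.

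By class of parent, the 105 copies of cytosolic ribosomal protein genes held 2 higher (Rps13-ps2 and Rps15a-ps7) and 0 lower pseudogenes, with a median log2 difference of -0.04, and 0 of their 57 parents were called. The 16 copies of chromatin and nuclear transport genes held 0 higher and 3 lower (median -0.18), and 4 of 8 parents were lower. The 11 copies of RNA-binding protein genes held 0 higher and 2 lower (median -0.33), and 1 of 9 parents, Snrpe, was lower. Neither Lsm5 nor Hnrnpa3, the parents of these 2 lower copies, was called. Of the 12 copies of proteasome and ubiquitin-family genes 2 were lower (median -0.17) and 0 of 11 parents were called. Of the 11 copies of respiratory chain genes 1 was lower (median -0.15), and 1 of 11 parents, Cycs, was lower. Atp5j, the parent of that lower copy, was not called. The lower copies in the proteasome and respiratory chain classes, Gm10705, Gm8394 and Gm11966, reached 5 FPKM only through the controls. Their entry and their direction are therefore not independent. The 5 cytoskeletal copies (median -0.39) and the 8 copies of chaperone genes (median -0.05) held 1 lower each, Gm3788 and Gm11585. Their parents Tmsb10 and Ppih were not called. The lower parents in these classes were others, Tuba1b, 1 of 4, and Ptges3, 1 of 7. The 7 copies of glycolytic genes (median -0.18) and the 9 of translation factor genes (median -0.11) held none called, while 2 of 4 glycolytic parents, Gapdh and Tpi1, were lower and 0 of 8 translation factor parents were called. The 84 others held 4 higher and 6 lower, with a median of -0.08, and 3 of their 75 parents were higher and 7 lower. Among these 6 lower ones, Gm13552 and Gm11223 also reached 5 FPKM only through the controls. The call of Tpi1 was lost in all 6 single omissions, those of Cycs and Snrpe in 5, that of Gapdh in 4, that of Tuba1b in 3 and that of Ptges3 in 1. Counts that fall on so few pseudogenes are given beside the 6.22% higher and 5.84% lower over all rows, and no class was tested.

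Of the 194 parents, 3 were higher (Rab7, Tmed2 and Map1lc3b, which encodes an autophagosome protein) and 17 lower (10.3% in all, against 12.1% of all rows). The call of Rab7 held in all 6 single omissions, that of Tmed2 was lost without overexpression 1 or without overexpression 2, and that of Map1lc3b was lost in 5 of the 6. Of the 20 parent calls, 6 held in every one of them. For the 22 called pseudogenes with a tested parent, the parent was called in the same direction in 8, in the opposite direction in 0, and not called in 14. The 22 include the 5 lower pseudogenes that reached 5 FPKM only through the controls. Of these, Gm11223 is among the 8 and the rest are among the 14. The difference had the same sign in 19 of the 22. Where reads can be counted in either row, this is no independent observation of the parent. With 1 library omitted, 1 to 6 parents were higher and 7 to 13 lower, with 6 higher without control 2, 1 higher and 11 lower without overexpression 1, and 7 lower without overexpression 2.

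**Figure D3:**
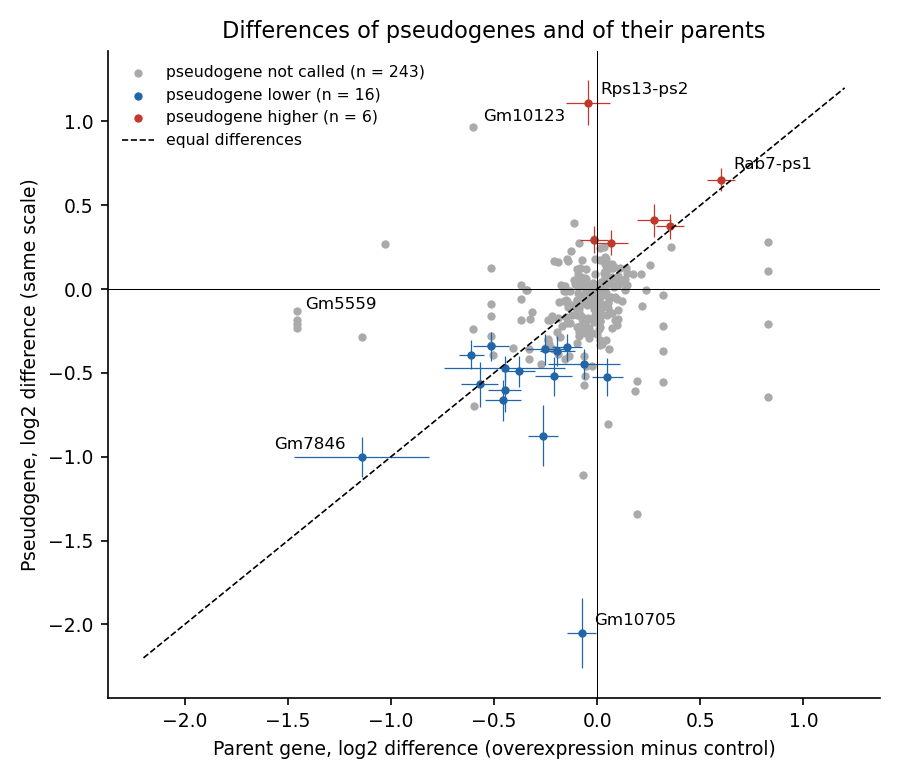
Log2 difference (overexpression minus control, log2(FPKM + 1) scale) of each pseudogene (y axis) against that of its parent (x axis) for the 265 pairs; bars are the standard errors of the fit, drawn for called pseudogenes, and the dashed line marks equal differences. Rab7-ps1 lies at 0.65 beside 0.60 for its parent, while Rps13-ps2 at 1.11 and Gm10705 at -2.05 stand beside parents at -0.05 and -0.08.

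The difference between a pseudogene and its parent was then tested itself, on the log2 ratio of each pseudogene to its parent over all 559 pairs in the table with both rows at a mean of at least 1 FPKM. No pair was called (0% of 559), and 38 pairs (6.8%) had an unadjusted p under 0.05. Gm10705, which reached 5 FPKM only through the controls, and Ube2l3 had the smallest p. The log2 difference of their ratio was -1.98 (SE 0.27, limma adjusted p = 0.115). Rps13-ps2 and Rps13 came next at 1.16 (SE 0.22, adjusted p = 0.396). A p that misses the threshold does not show that pseudogene and parent changed alike. Without control 2 the pair Gm10819 and Pebp1 was called lower, and without overexpression 3 another pair was, and both counts were 1.

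In some families the parent and a copy ran opposite to each other from library to library, within the groups as much as between them. Rpl17, a large-subunit gene, had 78.5, 227 and 75.8 FPKM in the controls and 227, 155 and 219 in the overexpression libraries. Its copy Rpl17-ps10 had 281, 135 and 317 in controls and 109, 242 and 119 with overexpression. The 3 libraries with the highest parent level (control 2, overexpression 1 and overexpression 3) were the 3 with the lowest copy. Summed over the parent and its 6 listed copies per base of the parent, the levels were 263, 346 and 264 in controls and 331, 323 and 335 with overexpression, and the within-group standard deviation fell from 0.67 for Rpl17 alone to 0.16 on the log2 scale. Another copy, Rpl17-ps3, did not follow this pattern and had 115, 121 and 104 FPKM in controls and 111, 127 and 129 with overexpression.

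Ppia, the gene of cyclophilin A, and its identical copy Gm10123 showed the same in 1 library. Ppia had 232, 258 and 256 FPKM in controls and 224, 102 and 189.8 with overexpression. Gm10123 had 188, 203 and 120.5 in controls and 187, 686 and 268 with overexpression, so overexpression 2 held the lowest parent and the highest copy. The summed level was 262, 291 and 276 in controls and 253, 201 and 231 with overexpression, with a standard deviation of 0.13 in place of 0.42. The other examples were picked after their values were seen. Ndufa12, a respiratory chain gene, had 15.9, 15.1 and 35.2 FPKM in controls and 13, 29.1 and 33.3 with overexpression, and its copy Gm15920 had 66.0, 81.6 and 14.4, then 65.1, 22.8 and 14.4. Their sum lay between 29.7 and 38.9 in all 6 libraries. Pebp1, which encodes a kinase inhibitor protein, had 141 FPKM in control 2 beside 32.2 and 11.1 for its copies Gm9824 and Gm10819, and 94.8 in control 1 beside 62.1 and 34.5. Among the 194 parents, 9 had a within-group standard deviation over 0.3, and 7 of these fell under 0.3 when summed with their copies. Sumo2 and Rpl7a stayed above it, at 0.33 and 0.53. These 9 were picked by their spread in the same data, which by itself favours a fall. Over all 194 parents the median was 0.103 alone and 0.101 summed, and it was smaller when summed in 123.

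**Figure D4:**
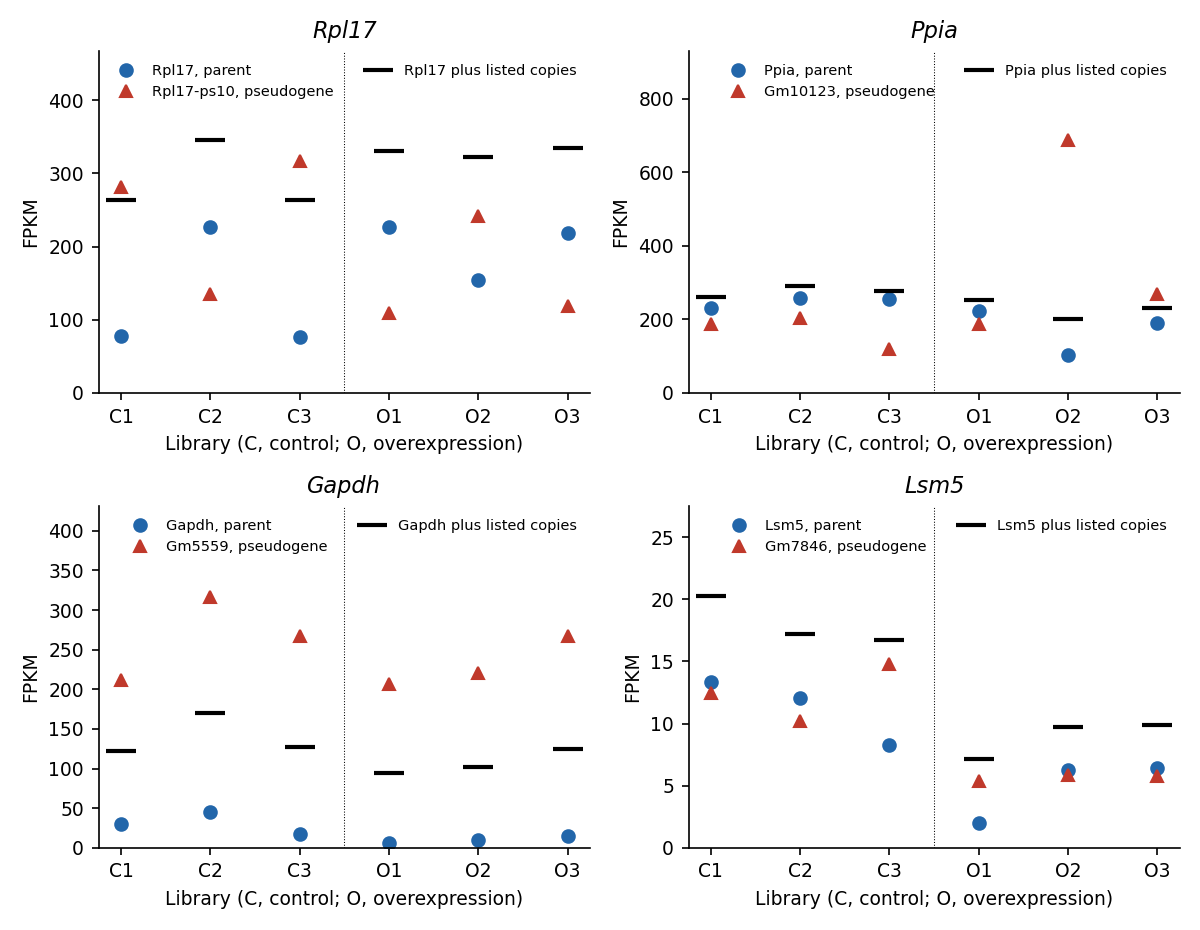
FPKM (y axis, from 0) in each library (x axis, C control, O overexpression) of 4 parents (circles), of 1 copy each (triangles), and of the parent plus all its listed processed pseudogenes per base of the parent (horizontal marks). Rpl17 and Rpl17-ps10 mirror each other across the 6 libraries, Gm10123 reaches 686 FPKM in overexpression 2 where Ppia is at 102, and the summed Gapdh levels overlap between the groups while those of Lsm5 do not.

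Because calls of parents may depend on where such reads were counted, each parent was summed with all its listed processed pseudogenes and the whole table of 12560 rows was tested again. In it 4 parents were higher and 17 lower, against 13.3% of all rows called (6.95% higher and 6.37% lower). Of the 20 parents called alone, 18 were called when summed, 2 were not, and 3 further ones were called only when summed. Many of these calls could hardly change. Of the 194 parents, 111 held over 90% of the reads of the parent and its copies, and for these the sum is close to the parent's own row. Among the called parents, the median share was 99.6% for Tpi1, 97.7% for Rab7 and 97.5% for Stmn1.

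Gapdh, the glycolytic enzyme gene often used as a reference for expression, was one of those whose call was lost. It had 30.3, 44.8 and 17.3 FPKM in controls and 6.19, 10.01 and 15.0 with overexpression, groups that do not overlap, and a log2 difference of -1.45 (SE 0.36, limma adjusted p = 0.0315). That call was lost without control 1, control 2, overexpression 1 or overexpression 2. Most of the family's reads were counted in its 18 listed copies. Gm5559 had 212, 317 and 267 FPKM in controls and 207, 221 and 268 with overexpression, and Gm7336 had 107, 127 and 119 in controls and 101, 103 and 119 with overexpression. In both copies the groups overlap, and neither was called (log2 differences -0.18, SE 0.15, and -0.13, SE 0.09, adjusted p = 0.517 and 0.448). The 2 next copies, Gm12070 and Gm13394, had means of 10.3 and 9.45 FPKM, and the other 14 ranged from 0.553 to 2.12. The summed Gapdh level was 122, 170.0 and 127 FPKM in controls and 94.4, 101 and 124 with overexpression, a log2 difference of -0.38 (SE 0.14, limma adjusted p = 0.119). The sum was called with the test on recovered reads (adjusted p = 0.0404) and without the 2 deepest libraries (adjusted p = 0.0309), and its adjusted p ranged from 0.0309 to 0.316 over all alternatives. The summed difference itself lay between -0.23 (without control 2, and as a plain sum of FPKM) and -0.49 (without overexpression 3).

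The other parent that was no longer called was Dynlt1f, one of several nearly identical genes for a dynein light chain, between which reads can also be split. It differed by -0.35 alone (SE 0.07, adjusted p = 0.0178) and by -0.24 with its copy Dynlt1-ps1 (SE 0.07, adjusted p = 0.0603, limma, with a range of 0.0285 to 0.706 over the alternatives). Dynlt1-ps1 held 77.6, 93.9 and 74.1 FPKM in controls and 86.5, 79.5 and 77.8 with overexpression, groups that overlap. Lsm5 was called when summed: its own levels of 13.4, 12.0 and 8.31 FPKM in controls and 2.0, 6.29 and 6.39 with overexpression became 20.3, 17.2 and 16.7 against 7.11, 9.75 and 9.92, and the log2 difference was -0.95 (SE 0.12, adjusted p = 0.00104). That call held in all 6 single omissions. Atp5j (-0.27, SE 0.07, adjusted p = 0.0405) and Tax1bp3 (0.30, SE 0.08, adjusted p = 0.0394) passed by a small margin, and their calls were lost in 4 and 5 of the 6 omissions. The sums of Lsm5, Atp5j and Tax1bp3 include Gm7846, Gm11966 and Gm13597, which were called in the same direction themselves. These summed calls are therefore not independent of those of the copies, and Gm11966 reached 5 FPKM only through the controls. Atp5j held 98.8% to 99.6% of the summed reads and was at -0.26 alone (limma adjusted p = 0.0511). Fdps, which encodes the farnesyl diphosphate synthase of the cholesterol pathway, held 33.6% to 42.1% of its family's reads and was lower both alone (-0.33, adjusted p = 0.0455) and summed (-0.40, SE 0.07, adjusted p = 0.00422). The call alone was lost in 5 of the 6 single omissions, with an adjusted p of up to 0.149. Fdps alone had low means, 1.71 FPKM in controls and 1.15 with overexpression, where adding 1 understates the log2 difference. Without the added 1, the overexpression mean was 0.674 of the control mean alone and 0.702 summed, so summing did not enlarge the change.

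At the threshold of 5 FPKM, the 3 pseudogenes just inside were Gm8822, Gm11223 and Gm15590, with means of 5.01 FPKM each, and the 3 rows just outside were Rpl38-ps1, Gm14584 and Gm9234, with means of 4.98, 4.96 and 4.86. The control mean was under 5 FPKM in 6 of the 273 pseudogenes and the overexpression mean in 15, so 21 entered through the group where they were higher, and 5 of these are among the 16 lower pseudogenes and 0 among the 7 higher ones.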

How the data were processed

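RNA was isolated with TRIzol and sequenced from stranded mRNA libraries, per the labels' protocols. Tools named in the submitters' processing notes are HISAT2 2.1.0, featureCounts 1.6.3 and cutadapt 2.5, with build mm10. They do not state the annotation release, the strand setting or the handling of reads with several alignments. FPKM were taken as the authors deposited them, 1 column per library. The authors' deposited log2 fold change, p-value and adjusted p-value were used only where named.

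The pseudogenes, parent classes and named genes were chosen with earlier results of these data known. Parents were found with blastn 2.17.0 on GENCODE M21 transcripts (12 pseudogenes had tied parents; the one with the higher mean FPKM was taken). Names cover called pseudogenes (up to 10 per direction by p), the 10 highest, their parents, the 2 highest copies of parents with at least 3, the Gapdh copies and the rows next to the threshold; the last 6 lower pseudogenes, and other genes named, were added after their values were seen. Of the 10 highest pseudogenes, 1 is not reported here.

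Tests used limma 3.58.1 in R 4.3.3 (lmFit, eBayes with a trend) on log2(FPKM + 1) for rows with a mean of at least 1 FPKM, 3 against 3, two-sided, with Benjamini-Hochberg adjustment over all rows and a threshold of 0.05. Adding 1 understates differences of low rows. The test of the pseudogene to parent ratio was added after the data were seen. The gene fit, the ratio fit and the recovery of totals were tested on simulated data.

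Reads were recovered as whole multiples in FPKM times exon length: 93.7% to 94.9% of values up to 1000 reads per library were whole within 0.05 reads, and 270 of the 273 pseudogenes were whole in all 6 libraries (within 0.2 reads above 1000). Reads in listed genes summed to 16663779 to 61178935 per library, slightly above the recovered totals. Alternatives were pseudocounts of 0.1 and 5, no filter, a mean of at least 5 FPKM, median-of-ratios and quantile scaling, a replicate block, voom on the recovered reads, parents at 95% identity, a plain sum of FPKM, each library left out, and, added after the data were seen, both deepest libraries left out.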

Additional observations from a re-analysis of the deposited data

How the results depend on the processing

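Every one of the 23 called pseudogenes kept its direction under all alternatives in which it was tested, and 6 kept their call under all of them (Gm10705, Rab7-ps1, Gm7846, Rps13-ps2, Gm11585 and Sms-ps). Of these 6, Gm10705 reached 5 FPKM only through the controls. With voom on the recovered reads, 4 pseudogenes were higher, and 15 of the 23 calls remained. Without the 2 deepest libraries, 14 of the 23 remained, the lower parents numbered 7, and 478 rows of the whole table were lower. The cause of these shifts was not tested, except that omissions leave fewer samples. Leaving out 1 library gave, over the whole table, 483 to 719 higher and 412 to 618 lower rows. It gave 2 to 6 higher and 7 to 19 lower pseudogenes, 1 to 6 higher and 7 to 13 lower parents, and 2 to 5 higher and 9 to 16 lower parents summed with copies. For the ratio of pseudogene to parent it gave 0 higher and 0 to 1 lower pairs. Some parents that were not called changed sign. Hnrnpa3 ranged from -0.249 to 0.0870 over the single omissions and was at 0.0281 without the 2 deepest libraries. Rps15a ranged from -0.0493 to 0.0375 and was at 0.0465 without the 2 deepest libraries. Rps13 ranged from -0.134 to 0.0286, Ctdsp2 from -0.0143 to 0.116 and Mrps18b from -0.00503 to 0.0895.

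The deviations of same-numbered libraries from their group means had correlations of 0.21, -0.29 and -0.03, not all above 0.1, and the labels do not say if a number marks a shared culture or day, so the numbers were not taken as pairs. A fit with the number as a replicate block gave 6 higher and 24 lower pseudogenes, 3 higher and 13 lower parents, 3 higher and 15 lower summed parents and 0 called pairs, and 20 of the 23 calls remained. The 273 pseudogenes had 99 to 49764 recovered reads over the 6 libraries.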
